A study of Homo sapiens with 6 samples.

Results

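DNA replication and G1/S genes were examined in H9 cells, an established human T lymphoma line that the labels describe as cutaneous T lymphocytes. The set holds 40 genes, chosen by symbol from a given list of replication factors, enzymes of nucleotide supply and regulators of entry into S phase, out of 26485 gene symbols in the deposited count table. All 40 were present and all 40 passed the filter on low counts, with 361 to 22110 counts per gene and library. Polyadenylated RNA was sequenced from 3 libraries of cells given PA4 at 1 µM for 24 h and from 3 control libraries, whose cells, per the labels' treatment protocol, were given the vehicle DMSO. PA4 is known here only by its code name, and the title of the series speaks of a derivative of berbamine. All libraries came from 1 line, and no label states that replicates were grown as separate cultures. The p-values therefore reflect the spread between these libraries alone, which may be technical. The submitters' design text gives PA4-induced cell death as the question behind the comparison.

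Replication is prepared in G1, when the origin recognition complex, with CDC6 and CDT1, loads the ring of MCM proteins on DNA. At the start of S phase CDC45 and the GINS complex join the ring to form the active helicase, and polymerase alpha with primase, the sliding clamp PCNA and its loader, and polymerases delta and epsilon then copy the strands. Most of these genes are known targets of E2F factors, which are released from the retinoblastoma protein when cyclin-dependent kinases, among them cyclin E with its kinase, become active. Their messages are known to be high in cycling cells and low in resting ones.

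A sequence feature that the choice of genes did not use is shown first, because E2F sites are a known link between these genes. In the set of RefSeq promoters of GRCh38.p14 used here, 36 of the 40 genes had an entry. CCNE2, GINS4, MCM4 and MCM5 had none in this set, although each has a position in that assembly. The 250 bases before each start were searched on both strands for TTTCGCGC, TTTGGCGC, TTTCCCGC and TTTGCCGC, which are forms of the E2F motif. At least 1 start held a motif in 15 of the 36 genes, or 41.7%, against 3.4% of all 27305 genes with an entry and 6.42% of the 6749 of them with a mean of at least 10 CPM in H9, where CPM is a count scaled to the size of its library. The share was 4 of 8 licensing genes, 3 of 6 polymerase genes and 1 of 5 genes of helicase activation. The 4 stretches below come from the most abundant holder in each of 4 roles, are printed 5′ to 3′ on the strand of the gene, and have the motif in capitals. For PCNA, on the minus strand at chr20:5126627-5126785, and MCM3, on the minus strand at chr6:52284882-52284992, the stretch is the part of the window without annotated exons of protein-coding genes in GENCODE release 29. For TYMS, on the plus strand at chr18:657603-657632, and LIG1, on the minus strand at chr19:48170440-48170469, where that annotation places an exon over the motif, 30 bases are shown.
PCNA: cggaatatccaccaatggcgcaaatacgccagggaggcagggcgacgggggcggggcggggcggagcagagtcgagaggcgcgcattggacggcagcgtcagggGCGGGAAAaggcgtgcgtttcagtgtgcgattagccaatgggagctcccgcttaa
MCM3: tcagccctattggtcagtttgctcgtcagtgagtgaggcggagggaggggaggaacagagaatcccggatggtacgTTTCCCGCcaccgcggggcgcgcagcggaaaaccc
TYMS: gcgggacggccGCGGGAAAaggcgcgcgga
LIG1: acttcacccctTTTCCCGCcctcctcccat
In PCNA and TYMS the motif TTTCCCGC lies on the opposite strand and therefore reads GCGGGAAA. In MCM6, not printed here, the window before its 1 listed start also held a motif. A match is a description of letters, and its absence, as in RRM2 and GINS1, says only that these letters are not in the window.

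Library totals were 18282212 to 22875191 counts with PA4 and 19033853 to 19260434 counts in control, and the 40 genes took 0.842% to 0.854% of the counts with PA4 and 0.828% to 0.854% in control. Among messages that define T cells, each library held 1824 to 2321 counts of CD3D, 6 to 12 of CD4 and at most 1 of CD2. The 12 T cell markers summed to 993 to 1041 CPM with PA4 and 1012 to 1078 CPM in control. Markers of other cells summed to 19.5 to 21.4 CPM with PA4 and 18.5 to 21.9 CPM in control for B cells, and to 16.0 to 18.8 CPM with PA4 and 17.8 to 20.4 CPM in control for natural killer cells. Those of myeloid cells, fibroblasts and pluripotent stem cells each summed to under 2 CPM in every library, with CSF1R, COL3A1 and NANOG at 0. The epithelial list summed to 208 to 213 CPM with PA4 and 196 to 218 CPM in control, with 2387 to 3022 counts of EPCAM, 1133 to 1679 of KRT7 and 127 to 178 of CDH1 per library, at most 5 of KRT8 and 4 of KRT18, and KRT19 at 0. In these bulk libraries fewer cells that express a gene and less of its RNA per cell cannot be told apart.

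No replication gene was called between PA4 and control. With PA4 the fold change over control ran from 0.940 for GINS1, a subunit of the GINS complex, to 1.079 for CCNE1, the gene of cyclin E1, and it lay within 5% of control for 33 of the 40 genes. RRM2, the small subunit of ribonucleotide reductase, stood 7.72% higher with PA4 and had the lowest p of the set. In edgeR's quasi-likelihood test 0 of the 40 genes were called at an adjusted p under 0.05. The share called was 0.231% of the 12107 tested genes, made up of 0.215% higher and 0.0165% lower with PA4. DESeq2 and limma-voom each called 0 as well. At an unadjusted p under 0.05 edgeR gave 1 gene higher, RRM2, and 1 lower, GINS1, a share of 5% against 5.29% of all tested genes, of which 2.69% were higher and 2.6% lower. At the same threshold DESeq2 and limma-voom gave 2 each. This count of 2 in edgeR became 6 without control replicate 1, 5 without control replicate 3 and 6 with offsets for GC content. It became 1 without PA4 replicate 1, PA4 replicate 2 or control replicate 2. The share of all tested genes was not taken in these fits, so the moves are not shown to be particular to this set. Calls over the whole table moved too, from 28 to 74 without control replicate 1 and 37 without control replicate 3. They were 98 with GC offsets and 17 without control replicate 2. The ranges of the PA4 and control libraries were apart in 6 genes, or 15%, against 11.2% of all tested genes. PA4 was above control in 4 of them, CDC6, MCM4, POLE2 and RRM2, against 5.91% of all tested genes, and below in GINS1 and RFC3, against 5.31%.

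**Figure D1:**
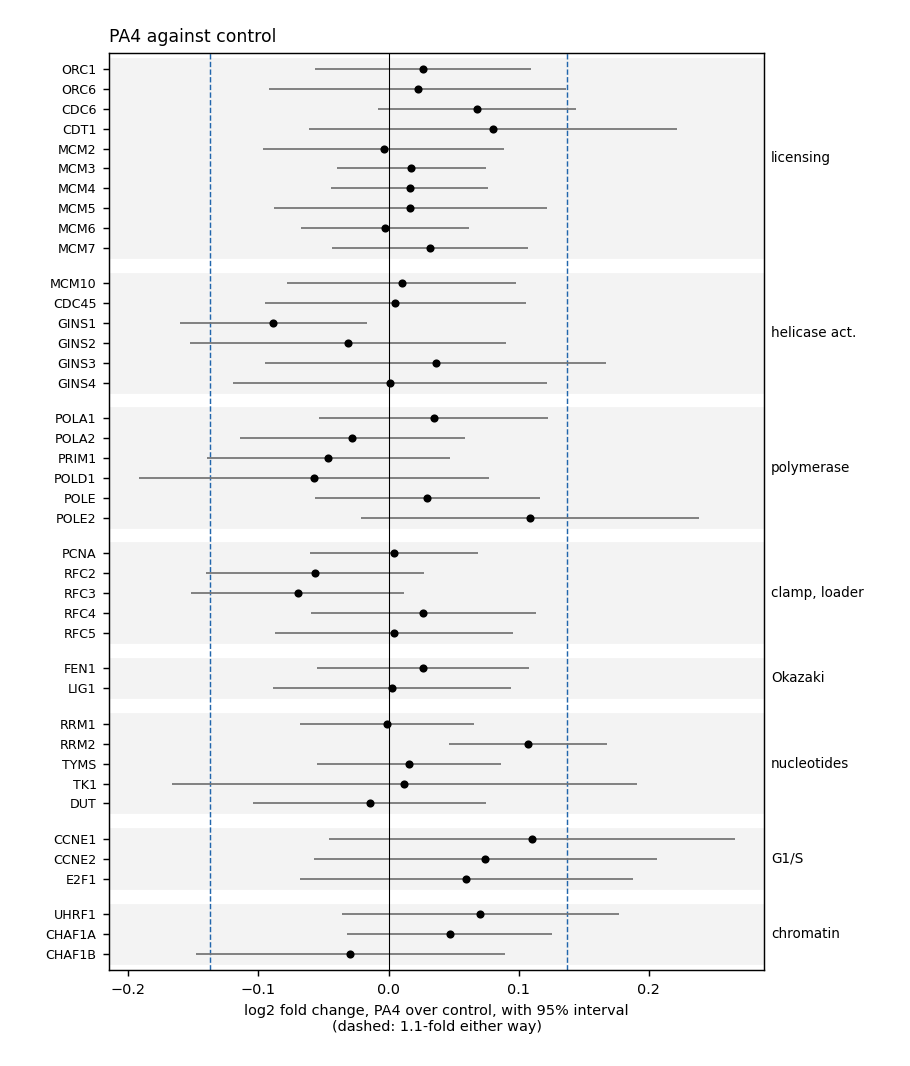
Log2 fold change of each gene, PA4 over control (x axis), with its 95% interval from edgeR (n = 3 libraries per group), in rows ordered by role from origin licensing at the top to chromatin assembly at the bottom. The intervals of 23 genes lie between the dashed lines at 1.1-fold, and those of RRM2 and GINS1 leave out 0.

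The size of difference that these libraries could have shown is given by the intervals. The standard error of the log2 fold change had a median of 0.042 over the 40 genes, with a range of 0.027 for MCM3 to 0.084 for TK1. The 95% interval lay within 1.1-fold in both directions for 23 of the 40 genes, or 57.5%, against 34.5% of the 8564 tested genes whose mean reached 10 CPM. These intervals are for single genes and are not adjusted for their number. Over the 164 tested genes of the further lists described below, the share within 1.1-fold was 58.5%, close to that of the 40 genes. Of the 40 genes, 25 had a mean of at least 100 CPM, well above the bound of 10 CPM. The highest bound of any of the 40 intervals was 0.27 on the log2 scale, for CCNE1, and the lowest was -0.19, for POLD1, the catalytic subunit of polymerase delta. The median log2 fold change of the 40 genes was 0.016, against -0.0040 over all tested genes. Positive values numbered 28 of 40, or 70%, against 47.6% of all tested genes. Over the further lists described below the positive share was 54.9%, from 39.5% in replication machinery to 68.75% in S phase targets of E2F. With library size alone as the scaling, positive values numbered 23 of the 40 genes. The medians were then 0.0100 for the 40 genes and -0.0100 over all tested genes.

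**Figure D2:**
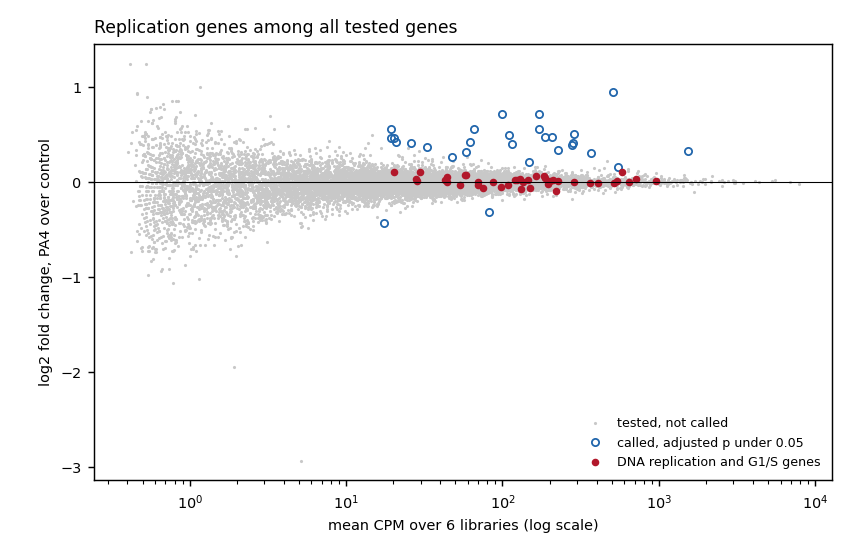
Log2 fold change, PA4 over control (y axis), against mean CPM over the 6 libraries on a log scale (x axis) for the 12107 tested genes. Filled circles are the 40 replication and G1/S genes, which lie between -0.089 and 0.11, and open circles are the 28 genes called at an adjusted p under 0.05.

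Of the 10 origin licensing genes, 8 had positive log2 fold changes and 0 were called, with a median of 0.020. CDC6, the ATPase that helps to load the MCM ring, had 167.8, 167.7 and 164.3 CPM in the PA4 libraries, against 157.3, 158.2 and 161.4 CPM in the control libraries. Every PA4 library lay above every control library, yet the log2 fold change of 0.068 ± 0.036 (SE) was not called, with an edgeR adjusted p of 0.963. MCM4, a subunit of the ring, had 549.7, 542.5 and 542.5 CPM with PA4, against 541.4, 534.3 and 540.4 CPM in control. Its groups also did not overlap, although the difference was 1.15%, with a log2 fold change of 0.016 ± 0.029 (SE) and 0.996 as its adjusted p. CDT1, the loading factor that geminin blocks, had 60.4, 61.3 and 57.6 CPM with PA4, against 63.9, 53.5 and 52.2 CPM in control. The PA4 libraries of CDT1 lay between the highest and the other control libraries, and its log2 fold change was 0.080 ± 0.067 (SE). Leaving out control replicate 1 gave 0.18, whereas leaving out control replicate 3 gave 0.027 and leaving out control replicate 2 gave 0.042, with no call in any of these fits.

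The other ring subunits differed from control by at most 2.23%. MCM7 was at 0.032 ± 0.036 log2 (SE), MCM3 at 0.018 ± 0.027, MCM5 at 0.017 ± 0.050, MCM6 at -0.0026 ± 0.030 and MCM2 at -0.0038 ± 0.044. MCM3, the most abundant of them by CPM, averaged 962.7 ± 11.5 CPM with PA4 and 951 ± 12.7 CPM in control (SD, n = 3 each). ORC1 and ORC6, subunits of the origin recognition complex, were at 0.026 ± 0.039 and 0.022 ± 0.054 log2 (SE). In each of these 7 genes the 2 groups overlapped.

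Among the 6 genes of helicase activation, GINS1 stood lowest. It lies on chromosome 20 of GRCh38.p14 at 25407673 to 25448563 and had 214.8, 212.2 and 215.4 CPM in the PA4 libraries, against 228.0, 231.5 and 223.5 CPM in the control libraries. All 3 PA4 libraries lay below all control libraries, at a mean of 214.1 ± 1.67 CPM with PA4 and 227.7 ± 3.97 CPM in control (SD, n = 3 each). The log2 fold change was -0.089 ± 0.034 (SE) with a 95% interval of -0.16 to -0.017, an unadjusted p of 0.0188 and an edgeR adjusted p of 0.827, which did not pass. For the other subunits of the complex, GINS2 was at -0.031 ± 0.057 log2 (SE), GINS3 at 0.036 ± 0.062 and GINS4 at 0.0013 ± 0.057, with overlapping groups, and the differences between subunits were not tested. CDC45, the partner of GINS in the helicase, and MCM10, which helps to activate it, were at 0.0052 ± 0.047 and 0.010 ± 0.042 log2 (SE).

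Polymerase and primase genes had 3 positive and 3 negative values of 6, 0 called and a median of 0.00093. POLE2, an accessory subunit of polymerase epsilon, had 30.3, 31.4 and 31.3 CPM with PA4, against 27.9, 29.999 and 28.4 CPM in control. The lowest PA4 library stood just above the highest control library, and the log2 fold change of 0.11 ± 0.061 (SE) had an adjusted p of 0.967. POLE, the catalytic subunit of the same enzyme, was at 0.030 ± 0.041 log2 (SE). The polymerase alpha genes POLA1 and POLA2 were at 0.035 ± 0.042 and -0.028 ± 0.041 log2 (SE), and PRIM1, the catalytic primase subunit that lays down RNA primers, was at -0.046 ± 0.044. POLD1 had 74.5, 74.0 and 70.7 CPM with PA4, against 85.0, 74.8 and 68.5 CPM in control, so that control replicates 1 and 3 enclosed all PA4 libraries. Its log2 fold change was -0.057 ± 0.063 (SE).

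**Figure D3:**
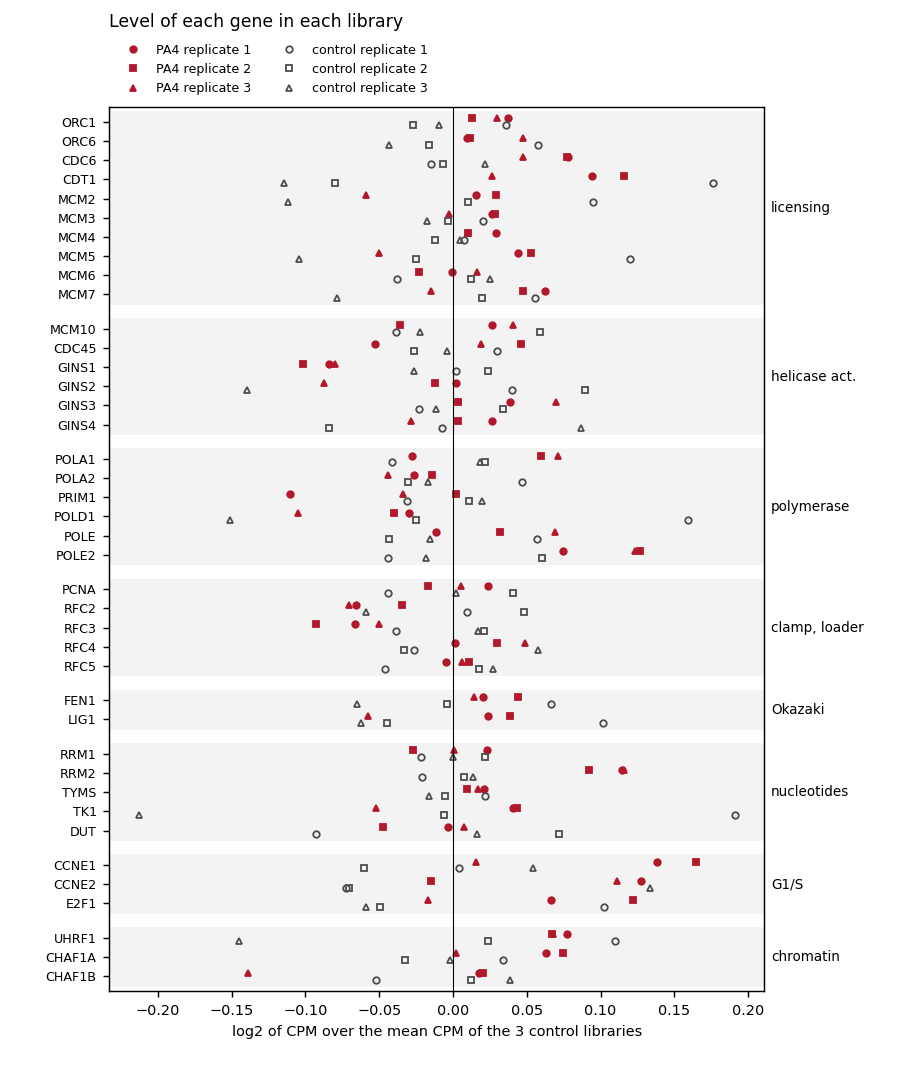
Log2 of the CPM of each gene in each library over the mean CPM of the 3 control libraries (x axis), in rows ordered by role; filled symbols are PA4 libraries, open symbols control libraries, and the shape gives the replicate number. RRM2 and GINS1 have the PA4 libraries apart from the control libraries, while for TK1, POLD1, CDT1 and UHRF1 the control libraries spread beyond the PA4 libraries on both sides.

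PCNA, the ring that tethers polymerases to DNA, averaged 643.8 ± 9.15 CPM with PA4 and 641.9 ± 18.8 CPM in control (SD, n = 3 each). Its log2 fold change was 0.0042 ± 0.031 (SE). RFC3, a subunit of the clamp loader, had 128.9, 126.5 and 130.3 CPM with PA4, against 131.4, 136.9 and 136.5 CPM in control. Its PA4 libraries all lay below the control libraries, with a log2 fold change of -0.070 ± 0.039 (SE) and 0.965 as its adjusted p. RFC2 was at -0.056 ± 0.040 log2 (SE), RFC4 at 0.027 ± 0.041 and RFC5 at 0.0042 ± 0.043, all with overlapping groups. FEN1, the nuclease that trims flaps of Okazaki fragments, and LIG1, the ligase that joins the fragments, were at 0.026 ± 0.039 and 0.0029 ± 0.043 log2 (SE).

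RRM2 stood apart from the other nucleotide genes by its p. It lies on chromosome 2 of GRCh38.p14 at 10122568 to 10211010 and had 610.1, 600.6 and 610.6 CPM in the PA4 libraries, against 555.4, 566.5 and 568.8 CPM in the control libraries. The lowest PA4 library was above the highest control library. The log2 fold change was 0.107 ± 0.029 (SE) with a 95% interval of 0.047 to 0.17, an unadjusted p of 0.0017, which ranked 72 among the 12107 tested genes, and an edgeR adjusted p of 0.284. RRM2 was therefore not called, but with offsets for the GC content of transcripts it passed, at an adjusted p of 0.00904 and a log2 fold change of 0.10. Over all 14 alternatives its log2 fold change stayed between 0.097 and 0.12, while its adjusted p ran from 0.00846 to 1.00. RRM1, the large subunit of the same enzyme, averaged 362.5 ± 6.37 CPM with PA4 and 362.8 ± 5.44 CPM in control (SD, n = 3 each). Per gene length the ratio of RRM2 to RRM1 was 1.54, 1.57 and 1.56 with PA4, against 1.44, 1.43 and 1.46 in control, with no overlap between the groups. The pair was picked by hand and the ratio was not tested.

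The other enzymes of nucleotide supply had fold changes closer to 1. TYMS, thymidylate synthase, was at 0.016 ± 0.033 log2 (SE), DUT, which removes dUTP, at -0.014 ± 0.042, and TK1, the thymidine kinase of S phase, at 0.012 ± 0.084. TK1 had 29.2, 29.2 and 27.3 CPM with PA4, against 32.4, 28.2 and 24.5 CPM in control, and its interval was the widest of this role. Among the G1/S regulators, CCNE1 had 21.5, 21.9 and 19.8 CPM with PA4, against 19.6, 18.8 and 20.3 CPM in control. PA4 replicate 3 lay within the control range, and the log2 fold change was 0.11 ± 0.074 (SE). CCNE2, the second cyclin E, and E2F1, a transcription factor of S phase entry, were at 0.074 ± 0.062 and 0.060 ± 0.061 log2 (SE). UHRF1, which guides maintenance methylation of new DNA, was at 0.071 ± 0.050 log2 (SE), with 0.13 without control replicate 1 and 0.0037 without control replicate 3, neither of them called. The chromatin assembly factors CHAF1A and CHAF1B were at 0.047 ± 0.037 and -0.029 ± 0.056 log2 (SE). None of these 9 genes was called, with edgeR adjusted p-values of 0.988 to 0.997, and the groups overlapped in each.

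Summed over roles, the levels of PA4 and control stayed within 5.31% of each other. All 40 genes together made up 8564, 8521 and 8438 CPM with PA4, against 8512, 8446 and 8278 CPM in control. PA4 replicate 3 lay within the control range, so the groups overlapped. Nucleotide genes summed to 1423 ± 15.8 CPM with PA4 and 1379 ± 18.02 CPM in control (SD, n = 3 each), without overlap, and the mean of RRM2 alone was 43.5 CPM higher with PA4. Licensing genes summed to 3747 ± 52.6 CPM with PA4 and 3699 ± 86.4 CPM in control, clamp and loader genes to 1131 ± 7.48 CPM with PA4 and 1138 ± 25.4 CPM in control, and polymerase genes to 586.5 ± 11.4 CPM with PA4 and 586.4 ± 10.3 CPM in control. Helicase activation genes summed to 562.5, 556.8 and 562.5 CPM with PA4, against 573.2, 584.5 and 563.3 CPM in control, again without overlap. The mean of GINS1 alone, PA4 minus control, differed by -13.5 CPM. The G1/S regulators, with the largest difference, summed to 125.1 ± 2.56 CPM with PA4 and 118.8 ± 4.70 CPM in control (SD, n = 3 each), with overlap. The groups overlapped in every role except nucleotide supply and helicase activation. Among single tested genes, 11.2% had groups without overlap. The sums were not tested.

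Levels of different genes were compared per length, as TPM, which was computed from the counts and the deposited gene model lengths and scales every library to the same sum, over all 6 libraries. PCNA was the most abundant of the 40 at 1166 TPM and ranked 99 in the whole table, and CCNE1 was the least abundant at 27.3 TPM. The 6 subunits of the MCM ring, which are present once each in the ring, did not have equal messages. MCM3 stood at 780 TPM, MCM7 at 509.8, MCM6 at 357, MCM2 at 305.8, MCM4 at 288 and MCM5 at 206 TPM. The ranges over the libraries overlapped only between MCM2, at 286 to 326 TPM, and MCM4, at 283 to 291 TPM. The ratio of MCM3 to MCM5 was 3.79 ± 0.105 with PA4 and 3.79 ± 0.246 in control (SD, n = 3 each).

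Within GINS, GINS1 at 176 TPM and GINS2 at 156 TPM stood far above GINS3 at 30.6 and GINS4 at 30.1 TPM, and the last pair overlapped. In the clamp loader RFC2 at 213 TPM and RFC4 at 203 TPM overlapped, above RFC3 at 120.3 and RFC5 at 91.5 TPM. PRIM1, at 176 TPM, exceeded its partners POLA2, at 78.1, and POLA1, at 62.3 TPM, and the catalytic subunits POLD1 and POLE were at 55.0 and 47.4 TPM. Among nucleotide enzymes RRM2 led with 446 TPM, ahead of TYMS at 376, RRM1 at 297, DUT at 229 and TK1 at 46.7 TPM. ORC1 and CDC6, at 99.4 and 139 TPM, lay below every MCM ring subunit. These levels assume that the whole gene model is transcribed, since the isoforms in use are not known from the counts.

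**Figure D4:**
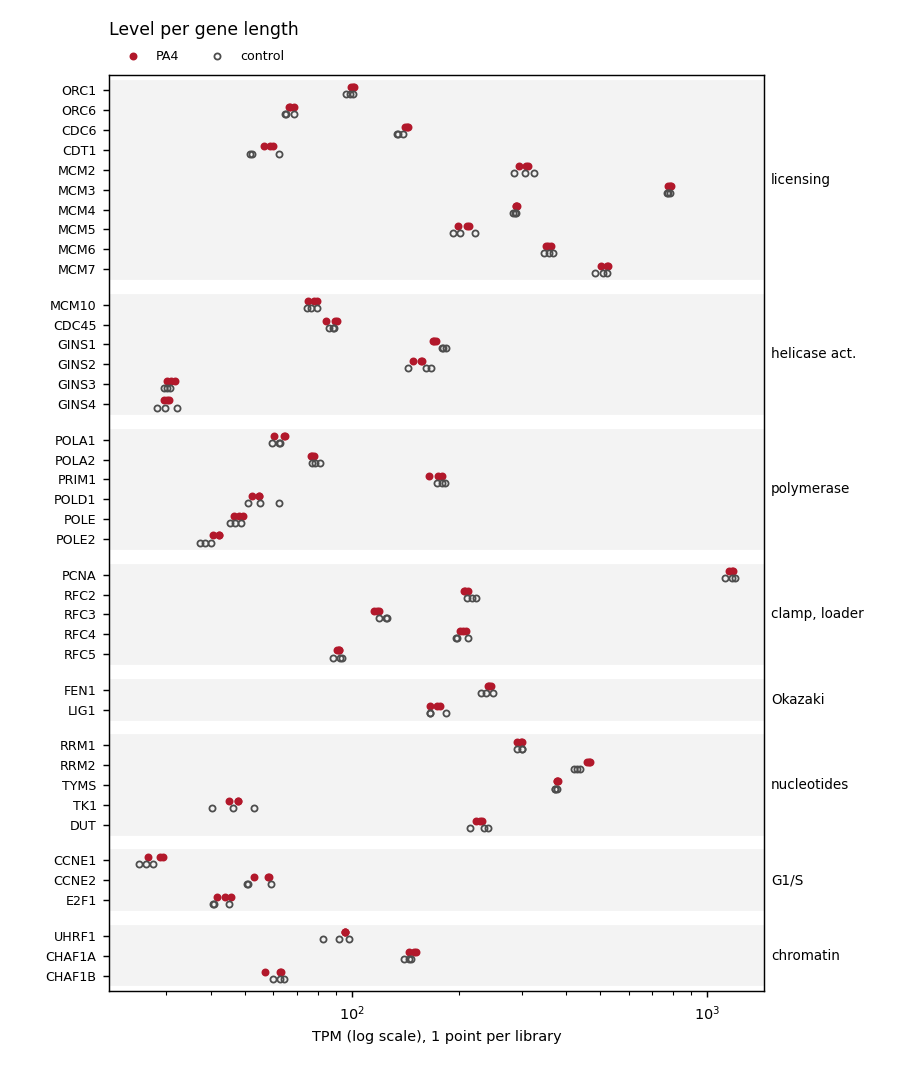
TPM of each gene (x axis, log scale) with 1 point per library, filled for PA4 and open for control, in rows ordered by role. PCNA lies highest at 1166 TPM and CCNE1 lowest at 27.3 TPM on average, and at this scale the points of both groups of a gene lie close together.

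Differences between control replicate 1 and the other control libraries moved with GC content. The coefficient of variation of the 40 genes had a median of 2.01% among PA4 libraries and 3.56% among control libraries, and 31 genes had the larger SD in control. For 35 of the 40 genes the difference between the group means was smaller than the range of the 3 control libraries. Neither count was set beside its share of all tested genes, so neither is shown to be particular to this set. Across the 40 genes, control replicate 1 over control replicate 3, on the log2 scale, tracked the GC content of the longest transcript with a Spearman rho of 0.797. This is a description, since all genes share the same libraries, and over the 8253 genes of at least 10 CPM rho was 0.787. For the 40 genes rho was 0.814 for control replicate 1 over control replicate 2 and 0.263 for control replicate 2 over control replicate 3. The largest ratios were 0.40 log2 for TK1 at 62.8% GC, 0.31 for POLD1 at 65.0% and 0.29 for CDT1 at 64.9%, and CCNE2, the GC-poorest at 36.9%, had the lowest, -0.21. Of the 20 GC-richer genes 19 were higher in control replicate 1 than in control replicate 3, and of the 20 GC-poorer genes 3 were.

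Among PA4 libraries the ratio of replicate 2 to replicate 3 followed GC content with a rho of 0.708 over the 40 genes. The ratio of PA4 to control followed it less, with a rho of 0.152, and the median log2 fold change was 0.017 in the 20 GC-richer genes and 0.0072 in the 20 GC-poorer ones. What part GC content has in the spread of single genes was not tested beyond the fit with GC offsets.

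**Figure D5:**
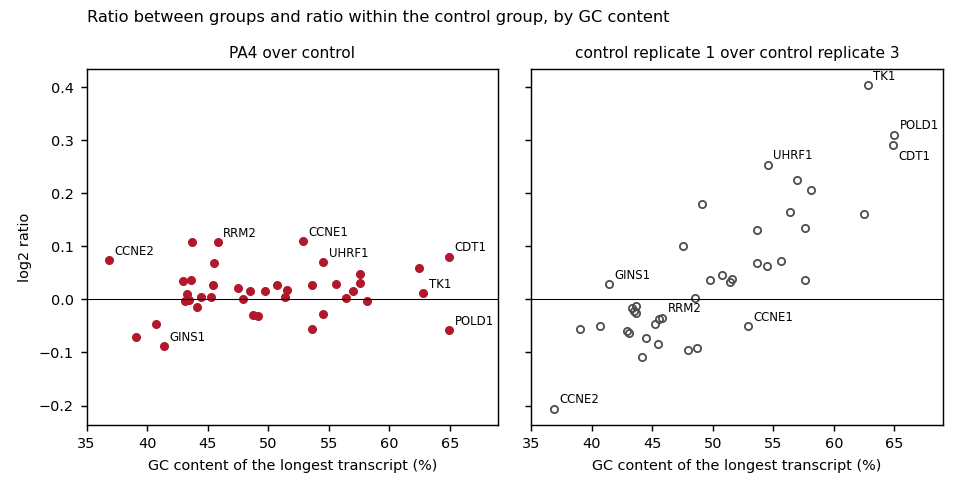
Log2 ratio (y axis) against GC content of the longest transcript in percent (x axis) for the 40 genes, with PA4 over control on the left and control replicate 1 over control replicate 3 on the right. The right panel climbs from -0.21 for CCNE2 to 0.40 for TK1, while the left panel stays between -0.089 and 0.11.

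Reads of overlapping genes could bear on a few of these values, since the strand setting of the counting is not given in the sources used here. In GENCODE release 29, TYMS shares 39.1% of its exon bases with ENOSF1 on the opposite strand, which had 1724 counts over all libraries against 27069 for TYMS. CCNE2 shares 37.0% with INTS8, also on the opposite strand, which had 10349 counts against 6803 for CCNE2. Shared exon bases were at most 8.94% of a gene, for MCM7 with AP4M1, in the other genes. FEN1 shares 49 bases, or 1.98%, with FADS2, one of the genes called higher with PA4. PCNAP1, the row of the table whose name marks a copy of a gene in the set, was at 0 in all libraries.

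The wider pathway was described from 6 further lists with 164 tested genes, 1 of which stands in 2 lists. Of 38 further genes of the replication machinery 0 were called, 15 were positive and 23 negative, and the median was -0.016 log2. GMNN, the gene of geminin, was at 0.075 ± 0.043 log2 (SE) and POLE3, a histone-fold subunit of polymerase epsilon, at 0.055 ± 0.034, the lowest p-values of that list among genes of 1 CPM or more. Of 22 genes of nucleotide metabolism 0 were called, with a median of 0.0027, and PPAT, the first enzyme of purine synthesis, was at -0.070 ± 0.046 log2 (SE). Of 31 tested regulators of G1/S 0 were called, with a median of 0.022. RBL2, a relative of the retinoblastoma protein, was at -0.084 ± 0.045 log2 (SE), and CCNA2, the cyclin of S phase, at -0.069 ± 0.038. The other 4 regulators of that list, CCND1, CDKN1C, CDKN2A and CDKN2B, had at most 10 counts in any library and were not tested.

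Of 32 further S phase genes known as E2F targets 0 were called and the median was 0.024 log2. LMNB1, the gene of lamin B1, had 346.6, 348.5 and 359.8 CPM with PA4, against 336.3, 333.4 and 329.9 CPM in control. Its groups did not overlap, and its log2 fold change of 0.078 ± 0.032 (SE) had an unadjusted p of 0.0263 and an adjusted p of 0.876, the only gene of these further lists with an unadjusted p under 0.05. BRCA2, a recombination factor, was at 0.11 ± 0.062 log2 (SE). In the response to replication stress 0 of 22 genes were called, with a median of 0.0035, and ATRIP, the partner of the kinase ATR, was at -0.11 ± 0.073 and SMARCAL1, a fork remodeller, at -0.069 ± 0.048 log2 (SE). Of 20 genes of G2 and mitosis 0 were called, with a median of 0.0013, and CENPF and KIF11, which act at kinetochores and in the spindle, were at 0.063 ± 0.046 and 0.040 ± 0.036 log2 (SE). Over the 164 tested genes of these lists, edgeR, DESeq2 and limma-voom each called 0, and 1, 1 and 2 genes had an unadjusted p under 0.05 by these tools in that order. In edgeR this was a share of 0.610%, against 5.29% of all tested genes. In 8 of the 164 genes, or 4.88%, the groups did not overlap, against 11.2% of all tested genes. PA4 was above control in 4, where 5.91% of all tested genes were, and below it in 4, where 5.31% were. The count of genes with an unadjusted p under 0.05 in edgeR depended on single libraries, at 14 without control replicate 3, 11 without control replicate 1, 3 without PA4 replicate 1 and 0 without PA4 replicate 2 or 3. The share of all tested genes was not taken in these fits, so the dependence is not shown to be particular to these lists.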

How the data were processed

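Reads were handled with Trimmomatic 0.39, fastp 0.23.2, STAR 2.7.9a and featureCounts of Subread 1.6.4 on hg38, per the submitters' processing notes. Annotation and strand setting: not given in the sources used here. The authors deposited raw counts per gene symbol, with the length of each gene model and no normalization. The 12107 genes that passed edgeR's filterByExpr, with at least 99.94% of the counts of each library, were scaled by TMM and tested by edgeR 4.0.16 (quasi-likelihood, two-sided, Benjamini-Hochberg over all tested genes, called at an adjusted p under 0.05) in R 4.3.3. The common coefficient of biological variation was 3.92%. CPM of genes uses the TMM-scaled totals of tested genes, CPM of marker lists the raw totals, and TPM the counts and deposited lengths. Chi-square divided by degrees of freedom was 1.48 to 6.81 between replicates, so no pair agreed within sampling noise. With 3 libraries against 3, an exact test of a single value cannot go below p = 0.1, and none is used. The edgeR fit was tested on counts simulated with known fold changes and without differences between libraries that follow GC content. Alternatives were RLE and library-size scaling, no filter, DESeq2 1.42.0, limma-voom (limma 3.58.1), the replicate number as a block, GC offsets, both together, and each library left out. The genes and lists were chosen with earlier results of these data known. All 40 genes are named, and of each further list the called genes or, with none, the 2 of at least 1 CPM with the lowest p, except for 1 gene that is not reported here.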

Additional observations from a re-analysis of the deposited data

How the results depend on the processing

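The 28 called genes of the whole table became 62 with no low-count filter, 59 with the replicate block, 98 with GC offsets and 121 with the replicate block and GC offsets, 26 to 31 under the other scalings and tools, and 17 to 74 with 1 library left out, lowest without control replicate 2 and highest without control replicate 1. The cause was not tested. Of the 40 replication genes 0 were called under every alternative except GC offsets, with 1, and the replicate block with GC offsets, with 1, in both cases RRM2. Their median log2 fold change of 0.016 ran from 0.0046, without control replicate 3, to 0.027, without control replicate 1, when 1 library was left out, and from 0.0100 to 0.020 under the other alternatives. The sign of the log2 fold change was the same in all 14 alternatives for 23 of the 40 genes and turned in at least 1 for 17, all of them uncalled. The adjusted p of GINS1 ran from 0.121 to 1.00. The correlations of deviations between same-numbered libraries were 0.16, -0.088 and 0.42. Between libraries of unlike number they ran from -0.42, for PA4 replicate 3 with control replicate 1, to 0.33, for PA4 replicate 2 with control replicate 1. With 3 libraries per group these values cannot settle whether the replicate numbers pair the libraries. The replicate block called 0 of the 40 genes by itself, and with GC offsets it gave 7 of them an unadjusted p under 0.05, against 2 in the fit without either. Of the further lists, 5 genes had such a p with the block and 11 with the block and GC offsets, against 1. The share of all tested genes with such a p was not taken in the block fits. These counts are therefore not shown to be particular to the 40 genes or to the further lists. The counting error is largest for CCNE1, the gene with the fewest counts, at 361 to 500 per library.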

Other observations

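The log2 fold changes of the 15 genes with an E2F motif before a start had a median of 0.016, with 10 positive, and those of the 21 genes without one had a median of 0.012, with 14 positive. Per gene length the ratio of GINS1 to GINS4 was 5.66 ± 0.127 with PA4 and 6.04 ± 0.462 in control (SD, n = 3 each), that of CHAF1A to CHAF1B 2.44 ± 0.0904 with PA4 and 2.31 ± 0.122 in control, that of CDT1 to GMNN 0.264 ± 0.0143 with PA4 and 0.264 ± 0.0408 in control, and that of RRM2 to RRM2B, the subunit that p53 is known to induce, 38.2 ± 2.46 with PA4 and 37.1 ± 2.73 in control. These ratios were picked by hand and not tested. Control replicate 1 was the highest library for 11 of the 40 genes and the lowest for 11, and control replicate 3 the lowest for 14. These counts were not set beside their share of all tested genes, so they are not shown to be particular to this set.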
